A study of Rattus norvegicus with 6 samples.

Results

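The collagens of basement membranes and the short-chain collagens were followed in primary rat chondrocytes as 10 genes chosen by their symbols, Col4a1, Col4a2, Col4a5, Col4a6, Col7a1, Col8a1, Col8a2, Col15a1, Col16a1 and Col18a1, of the 18923 genes counted. All 10 were found and all 10 passed the filter on low counts that left 13438 genes for testing. The control (CON) group held 3 samples of wild-type chondrocytes from newborn female Sprague-Dawley rats, freed from cartilage with type II collagenase and used at passage 1 or 2, in high-glucose medium with serum for 24 h. The RA group held 3 samples of the same cells kept for the same 24 h in that medium with 1 µM all-trans retinoic acid, the vitamin A metabolite that binds nuclear receptors. The comparison asks how RA, used in the study to model osteoarthritis, changed the transcripts of these cells, which were cultured apart from the cartilage matrix they were digested from. The labels do not tie the samples to animals or litters, so p-values measure only the spread between these samples.

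Collagens are triple-helical proteins built from 3 chains. Type IV chains form the sheet-like network of basement membranes, type VII forms anchoring fibrils below epithelia, and the short type VIII chains form networks in vessel walls and in the cornea. Types XV and XVIII are multiplexins, basement membrane collagens that carry glycosaminoglycan chains, and the end of type XVIII is released as endostatin, an inhibitor of vessel growth. Type XVI is a FACIT, a collagen with an interrupted helix that associates with other matrix fibrils. Cartilage has no continuous basement membrane, and basement membrane proteins, type IV collagen among them, are found in the matrix close to the chondrocyte.

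Sequences upstream of the annotated gene starts are shown for 3 of the 4 pairs of genes that the results compare, those of Col4a1, Col8a1 and Col18a1, and for the gene with a receptor half-site. They come from RefSeq on the rat assembly GRCr8, in which all 10 genes were matched by symbol, and they read 5′ to 3′ on the strand of the gene, ending at the base before the start. Capitals mark matches on either strand to the GC box (GGGCGG), the CCAAT box (CCAAT), the TATA box (TATAAA) and AGGTCA, the half-site that retinoic acid receptors bind in repeats. Col4a1 and Col4a2 lie head to head, and the whole stretch between their starts, 76 bases at chr16:84885521-84885596 on the plus strand, is given first. Col8a1 (plus strand, chr11:56246532-56246781), Col8a2 (plus strand, chr5:143870519-143870768), Col18a1 (plus strand, chr20:11473395-11473644), Col15a1 (plus strand, chr5:66297296-66297545) and Col7a1 (plus strand, chr8:118483114-118483363) follow with 250 bases each.
Col4a2 to Col4a1: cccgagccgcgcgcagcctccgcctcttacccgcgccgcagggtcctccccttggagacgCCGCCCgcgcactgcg
Col8a1: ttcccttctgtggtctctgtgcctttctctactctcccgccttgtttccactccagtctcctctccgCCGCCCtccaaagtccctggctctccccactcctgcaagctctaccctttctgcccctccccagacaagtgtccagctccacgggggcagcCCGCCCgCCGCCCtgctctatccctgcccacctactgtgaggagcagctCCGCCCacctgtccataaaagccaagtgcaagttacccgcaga
Col8a2: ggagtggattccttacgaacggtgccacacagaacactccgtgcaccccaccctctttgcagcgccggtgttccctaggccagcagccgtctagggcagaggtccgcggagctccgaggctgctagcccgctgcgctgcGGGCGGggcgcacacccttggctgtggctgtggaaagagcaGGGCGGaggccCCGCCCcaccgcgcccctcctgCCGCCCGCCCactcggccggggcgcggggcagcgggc
Col18a1: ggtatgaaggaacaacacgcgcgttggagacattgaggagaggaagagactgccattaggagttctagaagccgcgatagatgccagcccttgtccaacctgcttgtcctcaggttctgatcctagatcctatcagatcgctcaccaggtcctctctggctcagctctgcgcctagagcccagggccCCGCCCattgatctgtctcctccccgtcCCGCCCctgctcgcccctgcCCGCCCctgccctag
Col15a1: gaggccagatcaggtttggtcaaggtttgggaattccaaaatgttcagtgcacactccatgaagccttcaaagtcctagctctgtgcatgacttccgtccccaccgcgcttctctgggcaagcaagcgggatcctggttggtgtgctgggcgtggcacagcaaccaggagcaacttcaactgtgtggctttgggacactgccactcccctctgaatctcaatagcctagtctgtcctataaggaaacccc
Col7a1: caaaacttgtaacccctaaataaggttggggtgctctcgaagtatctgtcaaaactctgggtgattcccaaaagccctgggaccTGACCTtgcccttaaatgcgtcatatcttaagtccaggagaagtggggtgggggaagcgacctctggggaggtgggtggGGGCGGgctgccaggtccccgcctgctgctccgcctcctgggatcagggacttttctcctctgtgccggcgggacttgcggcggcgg

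The GC box was present in the 250 upstream bases of 9 of the 10 genes, against 30.5% of 33469 annotated rat windows of that length. The windows of the 10 genes ranged from 48% (Col4a6) to 75.2% (Col4a1) G and C. The median over all windows was 51.2%, with 5 CpG dinucleotides, and shares of windows were not adjusted for base composition. Only Col15a1 had none, while Col8a2 had 5 matches and Col8a1 had 4, each match counted where matches overlapped. The stretch between Col4a2 and Col4a1 held 1 GC box, was 78.9% G and C and held 13 CpG dinucleotides. A CCAAT box stood upstream of Col4a1 and of Col4a2, in each case within the other gene and outside that stretch, against 34% of all windows. AGGTCA occurred upstream of Col7a1 alone, against 14.1% of all windows, and TATAAA upstream of none of the 10, against 12.9%. Col4a5 and Col4a6 also lie head to head, on the X chromosome, with 1414 bases between their starts. These matches describe the letters of the windows and do not show a binding site.

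The levels of the 10 genes spanned 3 orders of magnitude. Levels are given as the deposited FPKM, counts scaled for gene length and sample total, so that genes can be compared. In CON, Col8a2 stood highest at 181 ± 27.1 FPKM (SD, n = 3), followed by Col16a1 at 77.8 ± 8.85, Col8a1 at 51 ± 2.1 and Col18a1 at 28.2 ± 5.33. Col4a2 (24.3 ± 2.88), Col4a1 (17.6 ± 1.63) and Col4a5 (15.7 ± 0.0903) formed the middle of the order, and Col15a1 (1.14 ± 0.472), Col4a6 (0.696 ± 0.0673) and Col7a1 (0.169 ± 0.0552) the low end. Of the 9 neighbouring steps in this order, the ranges over CON samples overlapped between Col18a1 and Col4a2 and between Col15a1 and Col4a6, and in no other step. In RA, Col8a1 stood next to Col8a2, at 128 ± 2.94 against 129 ± 6.66 FPKM (SD, n = 3), the only neighbours whose ranges overlapped there.

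**Figure D1:**
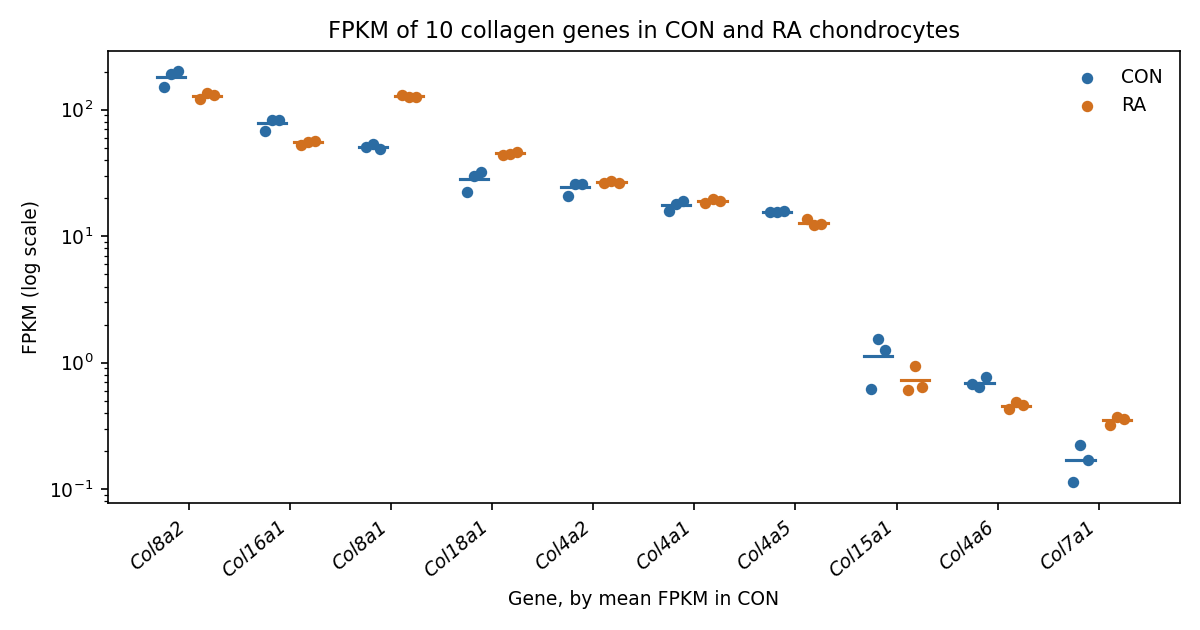
FPKM (log scale) of the 10 collagen genes, ordered by their mean in CON, with 1 point per sample and a line at the mean of each group of 3 (CON blue, RA orange). Col8a1 stands near 51 FPKM in CON and near 128 in RA, level with Col8a2 there, and Col15a1, Col4a6 and Col7a1 lie far below the other 7.

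Samples are named CON1 to CON3 and RA1 to RA3, and CON1 stood apart from the other libraries. Over genes, its counts differed from those of CON2 and CON3 with a chi-square per degree of freedom of 39.6 and 63.3, against 6.53 to 8.25 for the other 4 pairs of replicates. Its FPKM was at 44.4% of the mean of CON2 and CON3 for Col15a1, 57.8% for Col7a1, 71.2% for Col18a1, 76.4% for Col8a2, 80.7% for Col4a2, 81.5% for Col16a1 and 85.6% for Col4a1. For Col4a5, Col8a1 and Col4a6 it was at 99.4%, 99.1% and 95.8%. The cause was not tested, and results are therefore given with and without this sample. Total counts ran from 30170909 to 38007486 in CON and from 29370025 to 30952882 in RA.

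Of the 10 genes, 3 rose with RA: Col8a1, the short-chain network collagen, Col7a1, the anchoring fibril collagen, and Col18a1, the endostatin precursor. Differentially expressed genes (DEGs) had a p below 0.05 in the quasi-likelihood test of edgeR, Benjamini-Hochberg adjusted over all tested genes, and a log2 fold change (RA over CON, called the log2 change from here on) beyond 0.58 in either direction. By this rule 3 of 10 genes were higher, where 2.67% of all tested genes were, and 0 of 10 were lower, where 2.29% of all tested genes were. By the adjusted p alone, 3 were higher (5.31% of all tested genes) and 3 lower (4.50%), the latter being Col4a5, Col8a2 and Col16a1. Col4a6 also had an unadjusted p below 0.05 with a fold change past the threshold. DESeq2 called 0 of the 10 lower, beside 342 of the 18450 genes in that run. Without CON1, 2 were higher (2.84% of all tested genes) and 4 lower (2.70%), the latter being Col4a6, Col8a2, Col15a1 and Col16a1. The median log2 change was -0.11 over the 10 genes, -0.0057 over all tested genes and -0.19 over the 24 tested of the 32 other collagen genes, of which 1 was higher and 6 were lower. In whole cultures, fewer cells of a type and less RNA per cell cannot be told apart.

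**Figure D2:**
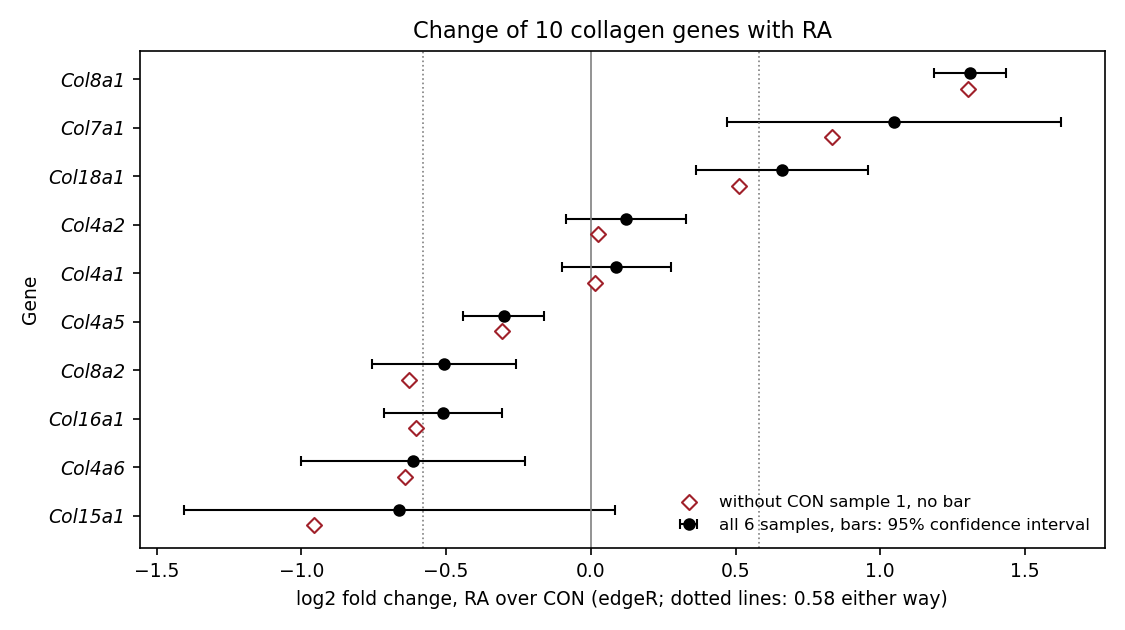
log2 change of each gene, RA over CON, from edgeR on all 6 samples (black, bars are 95% confidence intervals) and without CON1 (open diamonds, no interval drawn), with dotted lines at 0.58 either way. Col8a1, Col7a1 and Col18a1 lie beyond the line on the right with all samples, and Col18a1 moves inside it without CON1 while Col8a2 and Col16a1 move beyond the line on the left.

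The type VIII chains had log2 changes of opposite sign. Col8a1 (ENSRNOG00000039668) had 50.7, 53.3 and 49.1 FPKM in CON1 to CON3 and 131, 127 and 126 in RA1 to RA3, and the groups lay far from each other. Its log2 change was 1.31 (SE 0.054, edgeR adjusted p = 9.83e-06), which is a 2.48-fold level with a 95% confidence interval of 2.28 to 2.70. It remained a DEG whichever of the 6 samples was removed (log2 change 1.29 to 1.34), and 165 of the 13438 tested genes had a larger rise. Col8a2 (ENSRNOG00000010841), the chain that can assemble with it, had 150, 192 and 201 FPKM in CON and 122, 135 and 130 in RA. Every RA sample lay below every CON sample, and CON1 was the closest to the RA group. The log2 change of Col8a2 was -0.51 (SE 0.11, edgeR adjusted p = 0.022), short of the fold threshold, and -0.63 without CON1 (edgeR adjusted p = 7.16e-06), past it.

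The make-up of the type VIII transcripts differed between the groups. Col8a1 gave 25.2%, 21.7% and 19.6% of the FPKM of both chains in CON and 51.8%, 48.4% and 49.2% in RA. Summed over both chains, the level was 232 ± 27.1 FPKM over the CON samples and 256 ± 4.52 over the RA samples (SD, n = 3 each). By sample the sum was 201, 245.5 and 250.2 FPKM in CON1 to CON3 and 252.7, 261.4 and 255 in RA1 to RA3, with CON1 far the lowest. The ratio of Col8a1 to Col8a2 was 0.337, 0.277 and 0.244 in CON and 1.08, 0.937 and 0.969 in RA. On the log2 scale the mean ratio differed by 1.81, with a pooled SD of 0.18, and by 1.93 without CON1, and the groups did not overlap. An exact two-sided permutation test gave p = 0.1, the smallest that 3 samples against 3 allow, and 0.133 after Benjamini-Hochberg adjustment over the 4 pairs of genes compared, so no pair could pass 0.05.

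**Figure D3:**
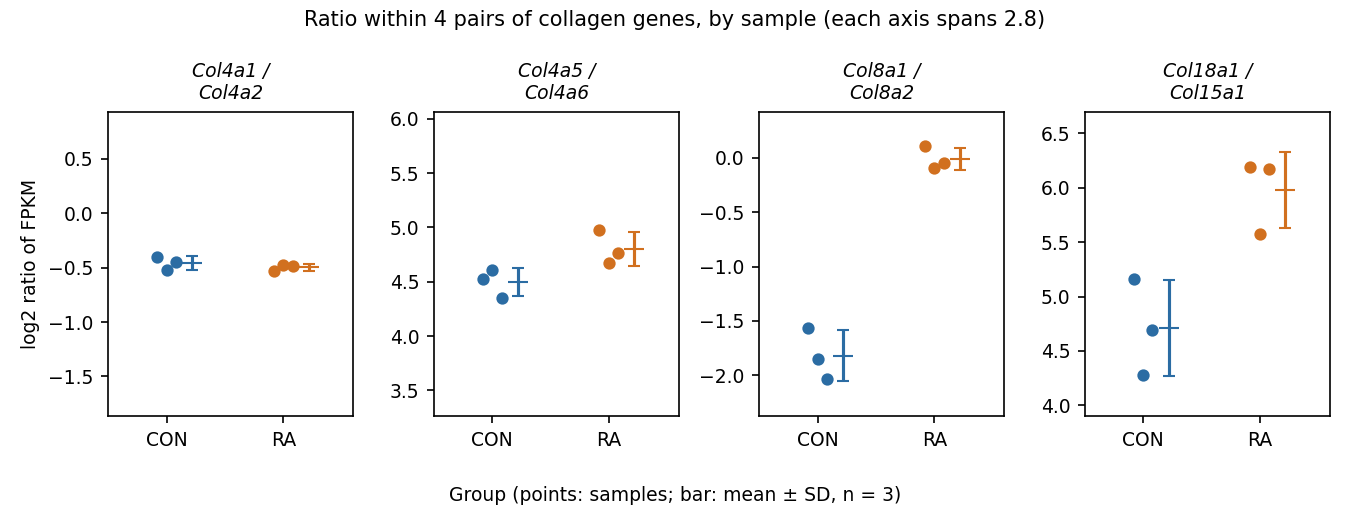
log2 ratio of FPKM within 4 pairs of genes in CON (blue) and RA (orange), with 1 point per sample and the mean ± SD of 3 beside them; every axis has the same span. The ratio of Col8a1 to Col8a2 climbs by 1.81 and that of Col18a1 to Col15a1 by 1.27, while that of Col4a1 to Col4a2 has overlapping groups.

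The multiplexins also had log2 changes of opposite sign, with Col18a1 alone past the test. Col18a1 (ENSRNOG00000001229) had 22.2, 30 and 32.5 FPKM in CON and 44.1, 44.8 and 46.4 in RA, so that each RA sample lay above each CON sample. Its log2 change was 0.66 (SE 0.13, edgeR adjusted p = 0.0142), a 1.58-fold level with a 95% confidence interval of 1.29 to 1.94. The call depended on single samples. Without CON1 the change was 0.51 with an adjusted p of 7.1e-05 (edgeR), short of the fold threshold. On removal of CON2, RA1, RA2 or RA3 the change stayed at 0.70, 0.68, 0.66 or 0.64, and the edgeR adjusted p was 0.0514, 0.0543, 0.0606 or 0.067. Counts of Col18a1 sum over transcripts from all of its starts, so the long and short forms of the protein are not separated.

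Col15a1 (ENSRNOG00000060381) was low, at 99, 242 and 247 counts or 0.621, 1.55 and 1.25 FPKM in CON and 93, 143 and 103 counts or 0.603, 0.938 and 0.641 FPKM in RA. CON1 lay within the range of the RA samples, and the other 2 CON samples lay above it. The log2 change was -0.66 (SE 0.33, edgeR adjusted p = 0.262), with a 95% confidence interval from -1.41 to 0.084. Without CON1 it was -0.96 (SE 0.2, edgeR adjusted p = 0.00592) and Col15a1 was a DEG. The ratio of Col18a1 to Col15a1 was 35.8, 19.4 and 25.9 in CON and 73.1, 47.8 and 72.4 in RA, a difference of 1.27 on the log2 scale with a pooled SD of 0.4, and 1.49 without CON1. The groups of this ratio did not overlap (exact permutation p = 0.1, 0.133 adjusted over the 4 pairs). Summed, the multiplexins had 29.4 ± 5.74 FPKM over the CON samples and 45.8 ± 1.18 over the RA samples (SD, n = 3 each), nearly all of it from Col18a1.

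The main type IV chains, Col4a1 and Col4a2, which assemble together in most basement membranes, showed no change that passed the test. Col4a1 (ENSRNOG00000016281) had 15.9, 18 and 19 FPKM in CON and 18.2, 19.6 and 19 in RA. Its groups overlapped, and its log2 change was 0.088 (edgeR adjusted p = 0.558) with a 95% confidence interval from -0.1 to 0.28. Col4a2 (ENSRNOG00000023972) had 20.9, 25.9 and 25.9 FPKM in CON and 26.3, 27.1 and 26.5 in RA. The RA samples of Col4a2 lay just above the upper CON samples, and its log2 change was 0.12 (edgeR adjusted p = 0.454) with a 95% confidence interval from -0.085 to 0.33. Both intervals lay inside the fold threshold. Without CON1 the changes were 0.014 for Col4a1 and 0.024 for Col4a2. The ratio of Col4a1 to Col4a2 stayed between 0.692 and 0.757 over all 6 samples (difference of -0.038 on the log2 scale, exact permutation p = 0.4, 0.4 adjusted over the 4 pairs).

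Col4a5 and Col4a6, the chains that pair in smooth muscle and skin basement membranes, were both lower in RA, by amounts that missed one part of the rule each. Col4a5 (ENSRNOG00000018951) had 15.6, 15.6 and 15.8 FPKM in CON and 13.6, 12.4 and 12.5 in RA, with the tightest CON group of the 10 genes (a coefficient of variation of 0.577%). Its log2 change was -0.30 (SE 0.061, edgeR adjusted p = 0.017), and the 95% confidence interval of -0.44 to -0.16 stayed inside the fold threshold. Without CON1 the change of Col4a5 was -0.31 (edgeR adjusted p = 0.0022). Col4a6 (ENSRNOG00000056772) was counted 102, 95 and 144 times in CON and 63, 70 and 70 times in RA. Its FPKM was 0.676, 0.64 and 0.771 in CON against 0.432, 0.485 and 0.46 in RA, with no overlap. Its log2 change was -0.61 (SE 0.17, edgeR adjusted p = 0.0578), and -0.64 without CON1 (edgeR adjusted p = 0.0433), where it was a DEG.

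The ratio of Col4a5 to Col4a6 was 23.1, 24.4 and 20.4 in CON and 31.5, 25.5 and 27.2 in RA, 0.31 higher in RA on the log2 scale with a pooled SD of 0.14 (exact permutation p = 0.1, 0.133 adjusted over the 4 pairs). Summed over these 4 type IV chains, the level was 58.2 ± 4.55 FPKM over the CON samples and 58.9 ± 0.553 over the RA samples (SD, n = 3 each). The remaining type IV chains, Col4a3 and Col4a4, named here after their values were seen, were at most 0.0663 and 0.215 FPKM in any sample. Col4a3 was too low to be tested, and Col4a4 had a log2 change of 0.88 (SE 0.27, edgeR adjusted p = 0.0841).

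Col7a1 (ENSRNOG00000020579), the anchoring fibril collagen, was the lowest of the 10 genes in both groups. It was counted 32, 62 and 59 times in CON and 88, 101 and 102 times in RA, or 0.114, 0.224 and 0.169 FPKM against 0.323, 0.375 and 0.359. All RA samples lay above all CON samples. The log2 change was 1.05 (SE 0.25, edgeR adjusted p = 0.0353), with a wide 95% confidence interval of 0.47 to 1.62 at these counts. Its call was lost on removal of CON3, RA1, RA2 or RA3, at log2 changes of 1.06, 1.11, 1 and 1.03 and an edgeR adjusted p of 0.0717, 0.0882, 0.135 and 0.123. Without CON1 it was 0.83 (edgeR adjusted p = 0.0199).

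Col16a1 (ENSRNOG00000031475), the FACIT, was the second most abundant of the 10 genes in CON. It had 67.6, 83.1 and 82.8 FPKM in CON and 52.8, 56 and 56.6 in RA, without overlap between the groups. The log2 change was -0.51 (SE 0.089, edgeR adjusted p = 0.00855), a level of 0.702-fold with a 95% confidence interval of 0.609 to 0.809. Without CON1 it was -0.61 (edgeR adjusted p = 4.77e-06), and the gene was then a DEG.

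With some genes higher and others lower, the sum over all 10 genes overlapped between the groups, at 345, 421 and 428 FPKM in CON and 409, 423 and 417 in RA. As a share of the FPKM of all 42 collagen genes counted, the 10 made up 2.485%, 2.485% and 2.42% in CON and 3.25%, 3.2% and 3.18% in RA. This share also depends on the level of the other 32.

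Genes whose products act with these collagens were read from 4 lists. Of the 76 genes listed, 70 were matched and 64 tested, and 11 were higher and 4 lower by the same rule. Over all tested genes 2.67% were higher and 2.29% lower, the shares beside which the counts of each list below stand. The median log2 change over the 64 was -0.005, beside -0.0057 over all tested genes.

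Among basement membrane partners, 4 of 21 tested genes rose and 2 fell (median log2 change 0.069). The nidogens, which link laminin to type IV collagen, moved apart. Nid1 had 56, 55.3 and 56.4 FPKM in CON and 95.4, 90.9 and 96.4 in RA, a log2 change of 0.74 (SE 0.053, edgeR adjusted p = 1.06e-04). Nid2 had 339, 379 and 399 FPKM in CON and 237, 244 and 249 in RA, a log2 change of -0.63 (SE 0.07, edgeR adjusted p = 9.94e-04). Neither nidogen had overlapping groups, and Nid2 stayed the more abundant in every sample. Without CON3 the change of Nid2 was -0.56 (edgeR adjusted p = 0.00178), short of the fold threshold. Lamb3, which encodes a chain of an epithelial laminin, had a log2 change of 0.76 and reached 3.75 ± 0.0455 FPKM in RA (SD, n = 3). The call of Lamb3 was lost on removal of CON2, RA1, RA2 or RA3, with an edgeR adjusted p of 0.0573, 0.058, 0.0547 or 0.0583. Tinagl1, which encodes a secreted matrix protein related to a tubular basement membrane antigen, rose by 0.72, and Fras1, a gene of the complex that joins epithelium to the underlying matrix, fell by 0.93 on the log2 scale.

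Of the 9 collagen receptors tested, 1 was a DEG, Itga2, with a median log2 change of -0.072. Itga2, the chain of a collagen-binding integrin, had 0.329, 0.301 and 0.232 FPKM in CON and 0.725, 1.1 and 1.14 in RA. Its log2 change was 1.78 (SE 0.25, edgeR adjusted p = 0.00298), and its level stayed low. The receptors with the highest mean level were Itgb1, the common chain of the collagen-binding integrins, and Mrc2, an endocytic collagen receptor. Itgb1 had a log2 change of 0.27 (edgeR adjusted p = 0.0399) and Mrc2 of 0.44 (edgeR adjusted p = 0.15), and neither was past the fold threshold. Without CON1 the change was 0.33 for Itgb1 (edgeR adjusted p = 1.29e-04) and 0.25 for Mrc2 (edgeR adjusted p = 0.0128), also short of it.

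Of the 23 genes for collagen folding and crosslinking, 2 rose and 2 fell (median log2 change -0.067). Colgalt2, which encodes a transferase that adds galactose to collagen lysines, had 20.2, 16.4 and 18 FPKM in CON and 4.99, 4.85 and 4.77 in RA. This was the steepest fall among the tested genes of the 4 lists, with a log2 change of -1.91 (SE 0.097, edgeR adjusted p = 2.28e-05). Of the 5 lysyl oxidase genes, whose enzymes crosslink collagen and elastin, Loxl1 rose and Lox fell, while Loxl2, Loxl3 and Loxl4 had log2 changes of 0.17, 0.16 and 0.32, short of the fold threshold. Loxl1 had 56, 84.9 and 91 FPKM in CON and 144, 147 and 155 in RA, a log2 change of 0.93, or 0.74 without CON1. Lox had 308, 293 and 282 FPKM in CON and 203, 192 and 185 in RA, a log2 change of -0.62. Both remained DEGs whichever of the 6 samples was removed. Tgm2, a transglutaminase, had a log2 change of 0.91, and it was not a DEG without RA3 (0.84, edgeR adjusted p = 0.0574).

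Of the 11 tested enzymes that cleave collagens or activate such enzymes, 4 were DEGs, each of them higher, beside 2.67% of all tested genes (median log2 change 0.27). Mmp9, a gelatinase that also cleaves type IV collagen, had 0.186, 0.158 and 0.0585 FPKM in CON and 0.845, 0.843 and 1.24 in RA, a log2 change of 2.88 (SE 0.38, edgeR adjusted p = 0.00231). The collagenase gene Mmp13 stood far higher, at 246 ± 20.5 FPKM in RA (SD, n = 3). Mmp3, the stromelysin, and Plau, the urokinase gene, had log2 changes of 1.02 and 0.66. Mmp7 was listed at 0 in all 6 samples.

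**Figure D4:**
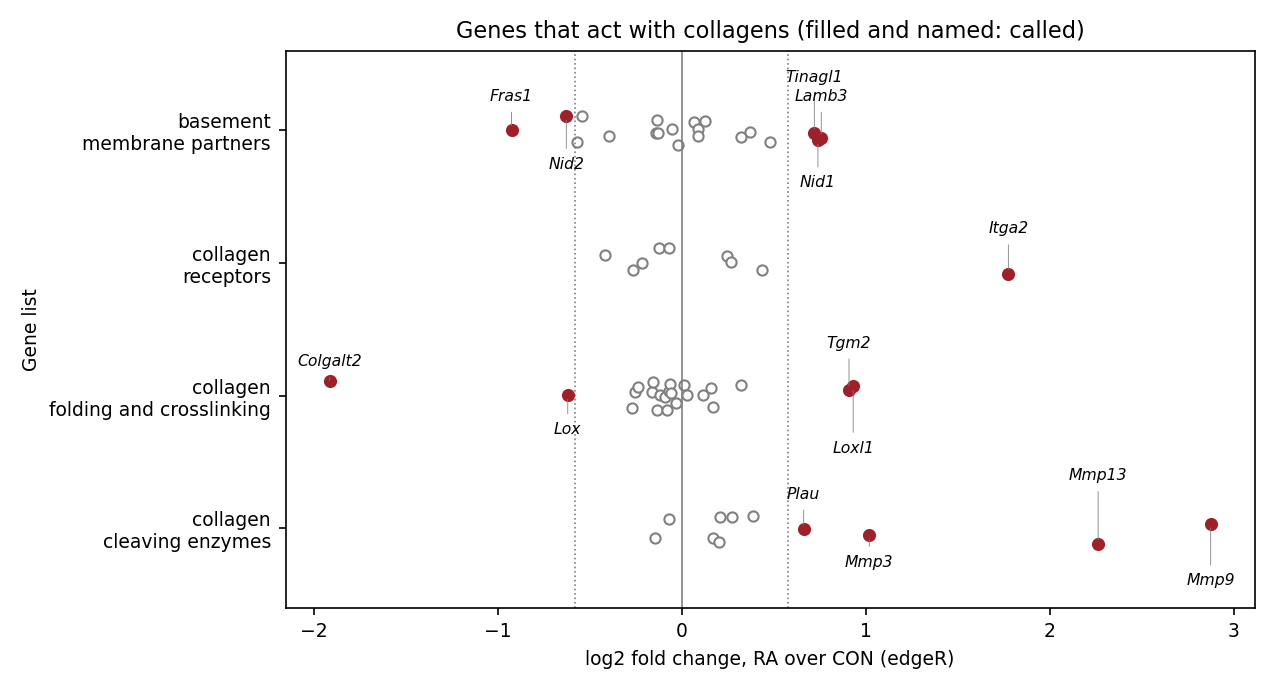
log2 change, RA over CON, of the tested genes of 4 lists, with 1 gene left out, DEGs filled and named, other genes as open circles and dotted lines at 0.58 either way (vertical scatter within a list has no meaning). The DEGs lie on both sides among partners and crosslinking genes and on the right side alone among receptors and cleaving enzymes.

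Marker genes were summed in FPKM to check the cells. The 9 chondrocyte markers were present in every sample, with a summed level of 6692 to 8816 in CON and 4243 to 4579 in RA, and 8 of the 9 were DEGs with lower levels, beside 2.29% of all tested genes. Of the 8 hypertrophic chondrocyte and bone markers, 7 of them tested, 3 were higher, beside 2.67% of all tested genes (sum of 833 to 933 in CON and 3072 to 3314 in RA). Cells of vessel walls and epithelia are known sources of several of these collagens. Of 7 matched endothelium markers, 6 were below 0.5 FPKM in every sample, Emcn was listed at 0 in all, and the sum was 5.61 to 8.07 in CON and 6.32 to 6.85 in RA. The 6 matched epithelium markers summed to 5.05 to 5.5 in CON and 4.18 to 4.88 in RA, with 4 below 0.5 throughout. The 8 matched smooth muscle and pericyte markers summed to 539 to 609 in CON and 457 to 495 in RA, with 2 lower. The 8 matched fibroblast and perichondrium markers were high in both groups, at 3732 to 4921 in CON and 4815 to 5068 in RA, with 1 lower. Macrophage markers summed to 13.2 to 14.8 in CON and 16.1 to 17.45 in RA. Of these 7 markers 5 were below 0.5 FPKM in every sample, and 0 of the 3 tested were DEGs. Skeletal muscle markers summed to 4.05 to 5.6 and 2.55 to 3.79, with 1 marker higher and 1 lower, and 4 of 5 matched below 0.5 throughout. Schwann cell markers summed to 1.16 to 1.88 and 0.732 to 0.767, with 3 of 4 matched below 0.5 throughout. The part of these lists in the results above was not tested.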

How the data were processed

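Poly(A) RNA of 3 CON and 3 RA samples was sequenced. For each sample the authors deposited raw counts of reads for 18923 genes, beside FPKM. Dividing counts by FPKM left only gene length and the total of the sample, so the deposited FPKM has no other scaling. The submitters' processing notes name HISAT2, HTSeq 0.13.5 and the build Rnor_6.0, without their settings. The annotation, the use of strand and the treatment of reads shared by similar genes are not given in the sources used here, so counts of overlapping genes are uncertain.

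Genes were kept by edgeR's filterByExpr (minimum count 10), scaled by TMM and tested with glmQLFit and glmQLFTest (edgeR 4.0.16, R 4.3.3) on all 6 samples without covariates. A gene was a DEG at an adjusted p below 0.05 (Benjamini-Hochberg) with an absolute log2 fold change above 0.58. Standard errors came from the F statistic. Ratios within 4 pairs of genes were tested by exact permutation over samples (scipy 1.17.1). Where 158 identifiers share a symbol, the identifier of highest mean count stands for it. The common biological coefficient of variation was 0.122. A floor of 3 counts, set as an approximate upper limit for a count of 0, corresponds to 0.0789 to 0.102 CPM, for counting error only.

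The 10 genes and all gene lists were chosen with earlier results of these data known. All 10 genes are described. From each companion list the DEGs are named, at most 6, and where fewer than 2 were DEGs, the 2 genes with the highest mean FPKM. Loxl2, Loxl3, Loxl4 and Mmp7 are named outside this rule. The values of 1 DEG are not reported here, and it stays in the counts. The tests were also run on simulated counts. These held changes well past the fold threshold and no sample set apart as CON1 was. Calls near the threshold or dependent on CON1 were therefore not checked in this way. Alternatives were other scalings, other filters, DESeq2 1.42.0, limma 3.58.1 on log2 FPKM, other thresholds, each sample left out and a replicate block.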

Additional observations from a re-analysis of the deposited data

How the results depend on the processing

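No log2 fold change of the 10 genes turned its direction under any alternative run. With all 6 samples, 3 of the 10 genes were higher and 0 lower, and the count of lower genes became 3 by the adjusted p alone and 1 by an unadjusted p below 0.05 with the fold threshold. Leaving out any 1 sample lost at least 1 of the 3 higher genes. Of these, 1 to 2 remained, and 1 without RA sample 1, RA sample 2 or RA sample 3. The count of lower genes was 0 to 4, and 4 without CON sample 1. Over all tested genes, 359 were higher and 308 lower with all 6 samples. Without CON sample 1, 2 or 3 they were 387 and 368, 289 and 229, or 362 and 294. Without RA sample 1, 2 or 3 they were 272 and 219, 280 and 224, or 265 and 215. Each of these runs tested 13612 to 13634 genes. With 1 sample left out, the edgeR adjusted p ranged from 0.0022 to 0.104 for Col4a5, from 7.16e-06 to 0.104 for Col8a2 and from 4.77e-06 to 0.054 for Col16a1. Of the 64 tested companion genes, 11 were higher and 4 lower, with 9 to 12 and 3 to 5 when 1 sample was left out. By the adjusted p alone 16 were higher and 10 lower, beside 5.31% and 4.50% of all tested genes. The differences in log2 ratio within the 4 pairs moved by less than 1 pooled SD under every alternative run. Col7a1 was not a DEG by limma on log2(FPKM + 0.1), with a change of 0.77 (adjusted p = 0.0683), or on log2(FPKM + 1), with 0.21 (adjusted p = 0.0695). By DESeq2 the counts were 3 and 0 for the 10 genes and 11 and 4 for the companion genes. Over the 18450 genes in that run, 388 were higher and 342 lower. Same-numbered CON and RA samples deviated together with r = 0.300, -0.005 and 0.142 over genes. Unlike-numbered samples had r from -0.348 to 0.208. These values do not settle whether the numbers pair the samples, and the reported fits do not pair them. With the replicate as a block, 3 of the 10 genes were higher and 0 lower, and 11 companion genes were higher and 4 lower. Of all tested genes, 368 were higher and 316 lower with the block, beside 359 and 308 without it. The block changed the SE of Col15a1 from 0.325 to 0.202 (edgeR adjusted p = 0.095 with the block) and that of Col4a6 from 0.169 to 0.194. With 3 samples per group and counts of 32 to 247, the values of Col4a6, Col7a1 and Col15a1 are the least precise.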
